A study of Macaca mulatta with 20 samples.

Results

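Phase I enzymes of drug metabolism were examined in 20 RNA-seq libraries from rhesus monkey liver. The set comprises the cytochrome P450 families CYP1 to CYP4, the flavin-containing monooxygenases (FMO), the carboxylesterases (CES), the alcohol dehydrogenases (ADH), aldehyde oxidase (AOX1), P450 oxidoreductase (POR) and both epoxide hydrolases (EPHX1 and EPHX2). Genes were taken by symbol, and the set was chosen with earlier results of these data known. Of 18288 genes in the count table, 50 matched these symbols, and 46 had at least 10 counts in at least 5 of the 20 libraries. CES3, CYP2W1, CYP4F8 and CYP4X1 had 10 counts in no library, with mean counts of 0.90, 0.40, 0.050 and 2.55, and were left out. CYP4B1 (5 libraries), CYP1A2 (6 libraries) and CYP4F22 (9 libraries) passed the threshold most narrowly. The 46 genes are 3 CYP1, 14 CYP2, 3 CYP3, 7 CYP4, 5 FMO, 4 CES and 6 ADH genes and the 4 single genes. CYP3A4, CYP2C76, CYP2D17, CYP3A64 and CYP4A11 were not among the 50 matched symbols of the count table and so were not analysed here.

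The libraries come from 10 rhesus monkeys (Macaca mulatta) in a trial of caloric restriction. Animals 001, 005, 006, 009 and 010 ate the control diet (Control), and animals 004, 007, 008, 011 and 012 were calorically restricted (CR). A liver biopsy was taken from every monkey at year 0 and again at year 2, so there were 5 libraries in each of 4 groups, and no group carries a transgene or a drug treatment in the labels. The sources used here give neither age nor sex nor the degree of restriction, and CR at year 0 names the arm of the animal at its first biopsy.

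Phase I enzymes are the first step by which the liver clears drugs and other foreign compounds: they oxidise, reduce or hydrolyse a molecule and so expose a polar group. P450 enzymes sit in the endoplasmic reticulum of hepatocytes, mostly those around the central vein, hold a haem group and take electrons from NADPH through POR. FMO enzymes oxidise nitrogen and sulphur atoms without haem, carboxylesterases cut esters and amides, alcohol dehydrogenases oxidise alcohols to aldehydes, and epoxide hydrolases open the reactive epoxides that P450 enzymes can produce.

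Library totals ran from 15421789 to 31440640 counts. A pair of libraries from the Control group at year 2 stood apart: albumin RNA, which marks hepatocytes, made up 5.42% of counts in 009 and 8.57% in 001, and 10.6% to 15.8% in the other 18 libraries. They also had the highest and the lowest scaling factor of all 20, 1.66 and 0.763 (TMM, which corrects for RNA composition). Results that use this group are also given without animals 001 and 009 where they lead a comparison or moved by more than 1.5 times. This holds for the members of smallest p in each comparison. Control changes of CYP4F22 and AOX1 and values of list genes are given with all animals only.

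Libraries of certain pairs of animals resembled each other at year 0 more than both biopsies of any animal did, while at year 2 the ranges overlapped. The pairs are 001 and 004, 005 and 006, 007 and 008, 009 and 010, and 011 and 012, and they were chosen after the libraries had been compared. Over 9950 genes outside the set, deviations from the mean of all 20 libraries correlated within these pairs at 0.40 to 0.66 at year 0 and 0.03 to 0.42 at year 2, as a description. Consecutive animal numbers that form none of these pairs, 4 in each year and all of different diets, had correlations of -0.39 to 0.17 at year 0 and -0.23 to -0.12 at year 2. Both biopsies of an animal correlated at -0.45 to 0.19, over 10 animals. The most similar library was the other animal of the pair in 10 of 10 libraries at year 0 and in 5 of 10 at year 2, and it was the own second biopsy in 0 of 20. Whether each library carries the right animal label was not tested, and every change within an animal given here holds for the animals as labelled. For 41 of the 45 phase I genes tested, the mean absolute difference in log2 CPM (counts scaled to library size with TMM factors) was smaller within the resembling pairs than between both biopsies of an animal. Its median over the genes was 0.49 within the pairs with both years pooled, 0.70 for own biopsies and 0.79 for other animals of the same group. The years differed when the difference was averaged over the genes of each pair. Its median was then 0.32 (0.30 to 0.39) within the pairs at year 0 and 0.67 (0.50 to 1.19) at year 2. For own biopsies it was 0.76 (0.51 to 1.22), so at year 2 the ranges overlapped. Animals 001 and 004 had different diets, while the other 4 resembling pairs shared a diet. Because resembling libraries may not be independent, the result that leads each comparison is also given with the counts of these 4 pairs summed, which leaves 3 units per group.

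**Figure D1:**
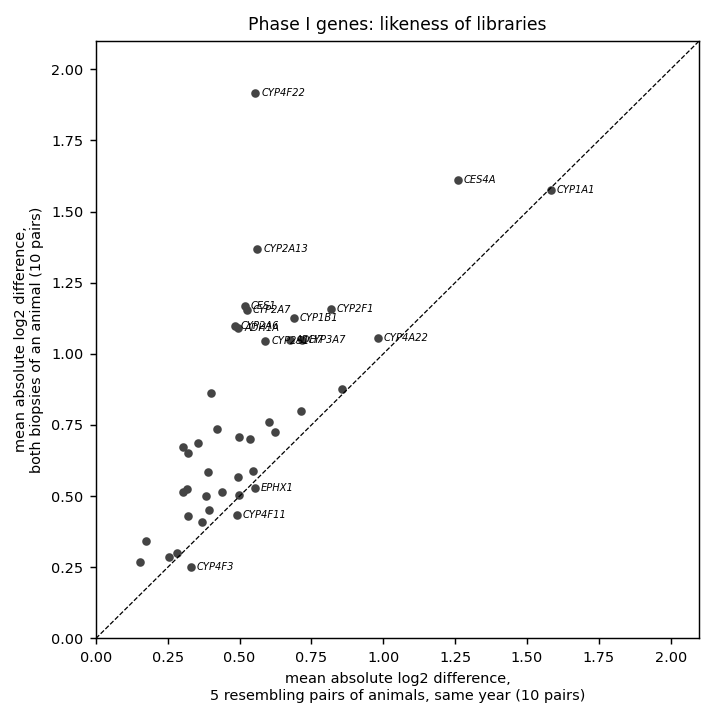
Mean absolute difference in log2 CPM within the 5 resembling pairs of animals, in the same year (x axis, 10 pairs) and between both biopsies of an animal (y axis, 10 pairs), 1 point per gene for 43 of the phase I genes tested, with a dashed line of equality. For 39 of these genes the point lies above the line, led by CYP4F22 at 0.56 and 1.92.

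In the plot of both distances, CYP4F22, CYP2A13, CYP2A6, CES1 and ADH1A lie far above the line of equality. CYP4F3, CYP4F11, EPHX1 and CYP1A1 are the 4 genes on or below it.

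The levels of the 46 genes spanned more than 4 orders of magnitude in TPM, a level per transcript length that is scaled to the same sum in every library. The most abundant was ADH1B, which oxidises ethanol, at a mean of 4066 TPM over the 20 libraries. It was followed by CYP2E1, which oxidises ethanol and small solvents, at 3542 TPM and by microsomal epoxide hydrolase EPHX1 at 1933 TPM. CYP2C8 (1647 TPM), CYP2A6 (1296 TPM) and ADH4 (1179.8 TPM) also had a mean level above 1000 TPM. Together the 46 genes held 2.25% of all TPM, from 1.61% in Control 001 at year 2 to 2.84% in CR 012 at year 0.

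Control libraries held 2051 to 5500.5 TPM of CYP2E1 at year 0, and 745 to 6576 TPM at year 2. Its lowest levels in that group were in the libraries of 009 and 001. Neighbours in the order of levels were not separable by their spread: the SD of CYP2E1 in Control at year 2 was 2392 TPM and that of ADH1B 702 TPM. Group means of ADH1B were 3988 ± 862 TPM (SD, n = 5) in Control at year 0, 3449.9 ± 702 in Control at year 2, 4380.3 ± 1069 in CR at year 0 and 4446 ± 1129 in CR at year 2. The groups overlapped in both genes.

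Among P450 genes below these, CYP2D6, which clears many basic drugs in humans, had a mean of 836 TPM, CYP2B6 had 493 TPM and CYP4A22, of the family of fatty acid hydroxylases, had 474 TPM. In the CYP3A family, whose members oxidise steroids and a wide range of drugs, CYP3A5 had a mean of 446 TPM, CYP3A7, the fetal liver form in humans, 385 TPM and CYP3A43 92.7 TPM. CYP2J2, an arachidonic acid epoxygenase, had 147 TPM. CYP1A1, which responds to aryl hydrocarbons, had 45.5 TPM, CYP1B1 had 0.69 TPM and CYP1A2 had 0.256 TPM. CYP1A2 is annotated as a transcribed pseudogene in RefSeq for the assembly T2T-MMU8v2.0. POR, the electron donor of these enzymes, had a mean of 347 TPM.

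Of the other classes, FMO5 had 358 TPM, against 6.30 TPM for FMO1, which human liver expresses before birth. AOX1 had 934 TPM and soluble epoxide hydrolase EPHX2 422 TPM. CES1, the main hydrolase of ester drugs in human liver, had 149 TPM and CES2 18.8 TPM. The symbol CES1 matched no rhesus RefSeq name in T2T-MMU8v2.0. Of the single genes, AOX1 had group means of 922 ± 137 TPM (SD, n = 5) in Control at year 0, 699 ± 325 in Control at year 2, 1090.1 ± 34.4 in CR at year 0 and 1024 ± 225 in CR at year 2. EPHX1 had 2045 ± 577, 1521 ± 656, 2132 ± 378 and 2035 ± 269 TPM in the same order of groups, and POR 315 ± 106, 370.2 ± 152, 343 ± 154 and 361 ± 171 TPM. The 4 groups overlapped in each of these genes. In all, 26 of the 46 genes had a mean level of at least 100 TPM and 7 had less than 1 TPM.

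**Figure D2:**
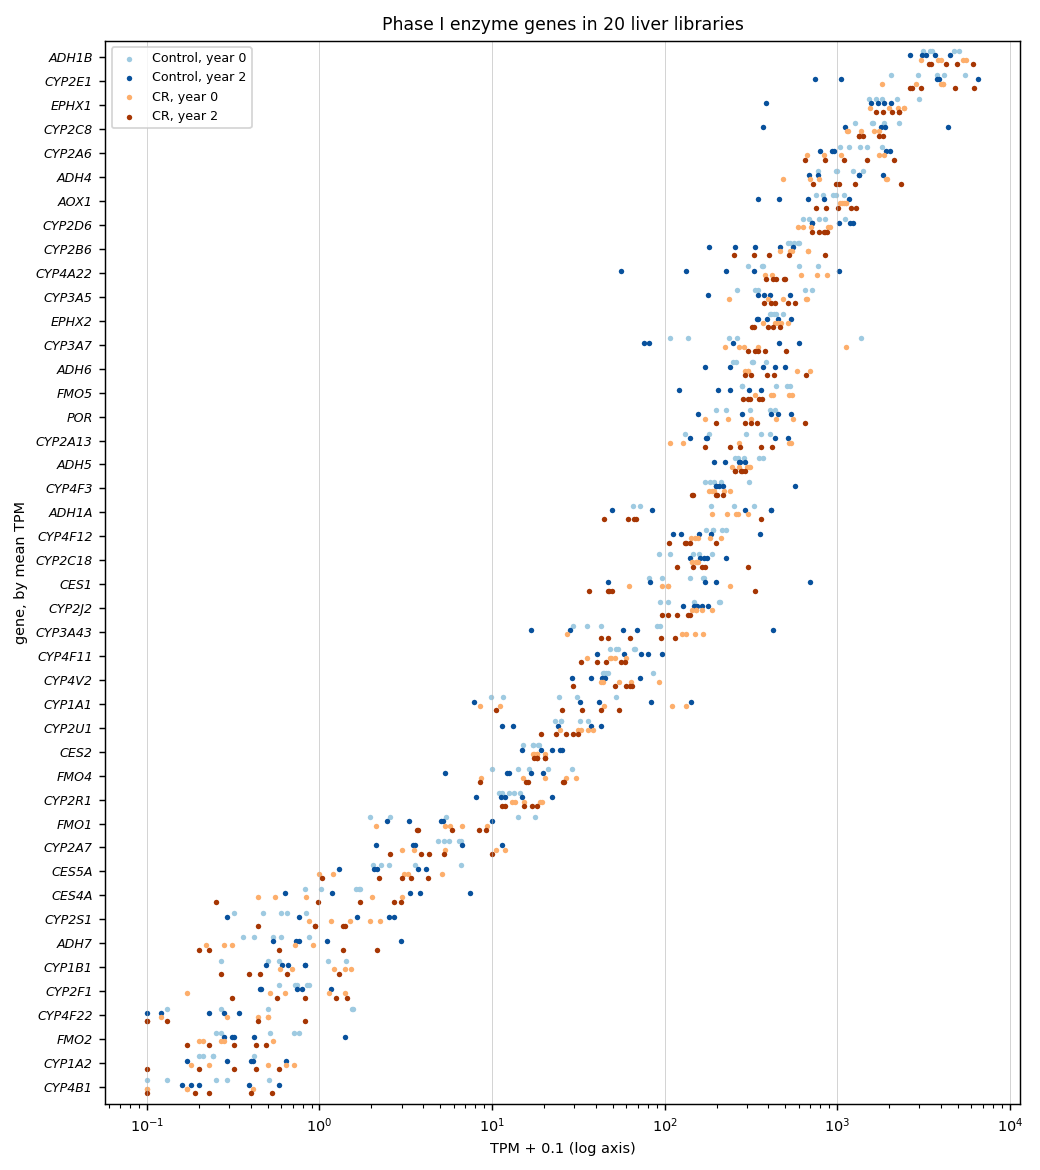
Level of 44 of the 46 phase I genes in TPM + 0.1 (log axis), with 1 point per library coloured by diet and year (5 libraries per group) and genes ordered by mean TPM. The order runs from ADH1B at a mean of 4066 TPM to CYP4B1 at 0.16 TPM, and the 4 groups overlap in most genes.

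The plot of levels shows how wide single genes spread: CYP1A1, CES1, CYP3A7 and ADH1A each cover a wide span, while CES2, CYP2R1 and EPHX2 form tight columns. CYP1A1 was 11.4 TPM in 001, 9.74 in 005, 24.4 in 006, 31.1 in 009 and 52.4 in 010 in Control at year 0. In CR at year 0 it was 133 TPM in 004, 11.1 in 007, 8.43 in 008, 44.3 in 011 and 110.0 in 012, with 004 and 012 high and 007 and 008 low. At year 2 it was 41.6 TPM in 001, 143 in 005, 32.5 in 006, 7.73 in 009 and 83.7 in 010 in Control and 54.5 TPM in 004, 42.5 in 007, 10.5 in 008, 32.9 in 011 and 25.2 in 012 in CR, and all groups overlapped. On the log2 CPM scale the SD over the 20 libraries was largest for CYP4F22 (1.89), a hydroxylase of skin lipids that had a mean of only 0.327 TPM here, followed by CYP1A1 (1.40), CES4A (1.26), CES1 (1.19) and ADH7 (1.18). It was smallest for EPHX2 (0.26), the vitamin D 25-hydroxylase CYP2R1 (0.26), CES2 (0.28), CYP4F3 (0.33) and the glutathione-dependent formaldehyde dehydrogenase ADH5 (0.34). Of the 45 genes tested, 23 had an SD larger than that of 75% of all tested genes and 14 larger than that of 90%. Among the 14 are genes of low counts: CYP4F22, CES4A, ADH7 and CYP1A2 had mean counts of 12.8, 34.8, 19.35 and 6.8. The part of counting noise in their SD was not tested.

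Several of these genes have near-identical copies, and the deposited counts divide reads that match more than 1 gene. Counts of ADH1A, ADH1B, CYP2A13 and CYP2A7 were fractional in 20 of 20 libraries, those of CYP2A6 in 19 and CYP2C8 in 17. Values of single members of the ADH1, CYP2A and CYP2C groups are therefore uncertain, since reads may be assigned to a neighbouring copy. In 30 of the 46 genes every count was whole, within a tolerance of 0.001.

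Of the CYP2A genes, CYP2A13, a close relative of the nicotine-oxidising CYP2A6 in humans, varied widely between libraries. At year 0 the CYP2A13 level was 298 TPM in 001, 407 in 005, 361 in 006, 181 in 009 and 132 in 010 in Control and 268 TPM in 004, 543 in 007, 526 in 008, 108 in 011 and 128 in 012 in CR. At year 2 it was 439 TPM in 001, 173 in 005, 141 in 006, 176 in 009 and 516 in 010 in Control and 362 TPM in 004, 238 in 007, 172 in 008, 419 in 011 and 273 in 012 in CR. The groups overlapped, and the CR animals 007 and 008 were highest at year 0 while 011 and 012 were lowest. The summed CYP2A level was 1654 ± 343 TPM (SD, n = 5) in Control at year 0, 1622 ± 768 in Control at year 2, 1560 ± 757 in CR at year 0 and 1544 ± 672 in CR at year 2.

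Of the 46 genes, 7 had more than 1 transcript in the deposited table. The main FMO5 transcript made up a mean of 63.6% of the FMO5 level, with 37.9% in Control 001 and 49.9% in Control 009 at year 2, both below the 57.3% to 69.5% of the other libraries. EPHX2 had a main transcript with 65.9% to 96.6% of its level, highest in Control 009 and 001 at year 2 (96.6% and 92.9%). A pair of CYP3A43 transcripts had 50% each in 19 libraries and 49.9% each in the other, so the estimates did not separate them.

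No phase I gene passed the threshold in any of the 5 comparisons or in the test of differences between animals (edgeR quasi-likelihood F test, adjusted p under 0.05 after Benjamini-Hochberg adjustment over all tested genes). CYP4B1 was filtered out of all tests as too low, CYP1A2 also out of both single-year comparisons and CYP4F22 out of that at year 2. The following values are therefore differences that did not pass the edgeR test, and log2 differences are given ± SE. This SE was derived from the test, as the absolute log2 difference divided by the square root of the edgeR F. In bulk tissue, fewer cells of a type and less RNA per cell cannot be told apart.

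The first comparison asked how these genes differed between year 2 and year 0 in the CR animals. Of 45 genes tested 0 were called, where the background was 0% of 13730 genes, and 2 had an unadjusted p under 0.05, where the background was 2.89%. DESeq2 called 1, beside 18 over all genes, and limma 0. The median log2 difference of the 45 genes was 0.03, beside 0.00 over all genes, with 23 positive and 22 negative values. The same direction in all 5 animals was seen in 4 genes (1 higher, 3 lower), against a background of 12.2% of all genes (6.55% higher, 5.67% lower). CYP2S1 and CYP2J2 were among the lower ones and CES2 was the higher one, with log2 differences of -0.58 ± 0.43, -0.32 ± 0.27 and 0.16 ± 0.20.

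ADH1A, a liver alcohol dehydrogenase, had the smallest p. Its level in CR at year 0 was 223 CPM in 004, 139 in 007, 195 in 008, 173 in 011 and 202 in 012. At year 2 it was 309 CPM in 004, 54.6 in 007, 47.7 in 008, 51.4 in 011 and 36.2 in 012. The 4 libraries other than 004 were all below every year 0 value, and 004 was above every one of them. The log2 difference was -1.47 ± 0.39, with an adjusted p of 0.999 by edgeR (unadjusted p = 0.00271). DESeq2 gave -1.47 with an adjusted p of 0.0409. Since 007 resembles 008 and 011 resembles 012, these 4 libraries form 2 summed units, and with resembling libraries summed the log2 difference was -1.15 (adjusted p = 0.99996, edgeR).

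CYP1B1, a P450 found mostly outside the liver, had a log2 difference of -1.02 ± 0.54 (adjusted p = 0.999, edgeR). On the positive side, ADH7 had 0.76 ± 0.64, CYP2C18 0.29 ± 0.26 and CYP2D6 0.25 ± 0.25 (log2 differences, smallest adjusted p = 0.999, edgeR). Single animals moved these values: without 004, ADH7 was at 0.06 and CYP2C18 at 0.07. Without 012 CYP2C18 was at 0.46 and CYP1B1 at -0.55, without 008 CYP1B1 was at -1.55, and without 007 CYP2D6 was at 0.14. Among cell type markers, all 17 macrophage markers tested had negative log2 differences in CR (median -0.58, summed level 1522 to 1989.6 TPM at year 0 and 545 to 1726 TPM at year 2) and 12 of 14 hepatocyte markers positive ones (median 0.14). Their part in the phase I values was not tested.

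**Figure D3:**
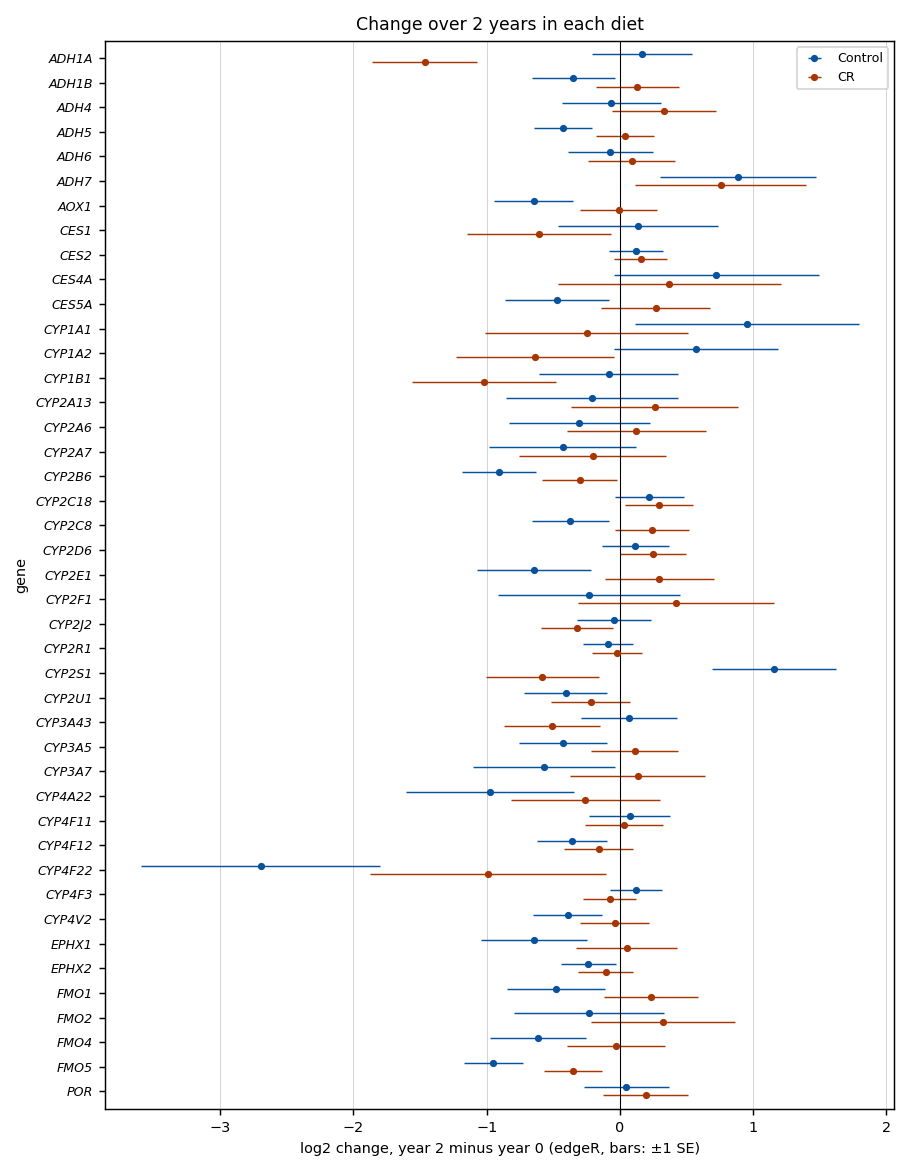
Log2 difference between year 2 and year 0 in Control (blue, 5 animals) and CR (brown, 5 animals) for 43 of the 45 phase I genes tested, with bars of ±1 SE derived from the edgeR F. In Control 29 of the 43 points are negative, in CR 21.

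The second comparison asked the same of the Control animals. Of the 45 genes 0 were called (background 0%), and 7 had an unadjusted p under 0.05 (background 14.6%). DESeq2 called 3, beside 203 over all genes, and limma 0. The median log2 difference was -0.24 beside 0.00 over all genes, with 14 positive and 31 negative values, while 50.4% of all genes were positive, as the plot of both changes shows. All 5 animals had the same direction in 5 genes, each of them lower at year 2, FMO5, CYP2B6 and CES5A among them (background 9.42%, of which 4.81% lower and 4.61% higher).

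Of the flavin monooxygenases, FMO5, a Baeyer-Villiger oxygenase, was 603 CPM in 001, 444 in 005, 431 in 006, 813 in 009 and 719 in 010 in Control at year 0. It was 256 CPM in 001, 244 in 005, 321 in 006, 299.7 in 009 and 417 in 010 at year 2. On the CPM scale all year 2 values were below all year 0 values. In TPM the times overlapped: 009 and 010 had 363 and 308 TPM at year 2, within the year 0 range of 282 to 537 TPM. FMO5 had a log2 difference of -0.95 ± 0.22 (adjusted p = 0.297 by edgeR and 0.00366 by DESeq2), and -0.67 without 001 and 009 (adjusted p = 0.555, edgeR). With resembling libraries summed it was -1.02 (adjusted p = 0.451, edgeR).

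CYP2B6, a target of the nuclear receptor CAR, was 885 CPM in 001, 1021 in 005, 1069.7 in 006, 1109.8 in 009 and 1035 in 010 in Control at year 0. It was 504 CPM in 001, 376 in 005, 548 in 006, 491 in 009 and 938 in 010 at year 2. The value of 010 at year 2 lay within the year 0 range and the other 4 lay below it. CYP2B6 had a log2 difference of -0.91 ± 0.28 (adjusted p = 0.301 by edgeR and 0.0486 by DESeq2), and -0.83 without 001 and 009 (adjusted p = 0.605, edgeR). With resembling libraries summed it was -0.90 (adjusted p = 0.451, edgeR). The low gene CYP4F22 had a log2 difference of -2.70 ± 0.90 (adjusted p = 0.309, edgeR) and AOX1, which oxidises aldehydes and nitrogen rings, -0.65 ± 0.30 (adjusted p = 0.34, edgeR). By animal, the AOX1 log2 change was -0.92 in 001, -0.27 in 005, 0.11 in 006, -1.90 in 009 and -0.32 in 010. On the positive side were CYP2S1, a P450 of mostly extrahepatic tissues, with 1.16 ± 0.47, ADH7 with 0.89 ± 0.59 and CYP1A1 with 0.95 ± 0.84 (log2 differences, smallest adjusted p = 0.32, edgeR). The CYP1A1 value was 0.28 without 005, 0.41 without 001 and 1.74 without 009. That of ADH7 was 0.53 without 009 and 0.08 without 001 and 009.

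Markers of liver cell types also differed in value between the years. The 14 hepatocyte markers had a median log2 difference of -0.42 in Control, 13 of them negative, and their summed level was 200343 to 231373 TPM at year 0 and 121709 to 244448 TPM at year 2. The 17 macrophage markers tested had a median of 0.43, all 17 positive, and summed levels of 802 to 1430.4 TPM at year 0 and 1000.04 to 2416 TPM at year 2. Endothelial markers had a median of 0.31 in Control, with 9 of 12 positive, and a summed level of 608.5 to 3949 TPM at year 2, highest in 009. No gene of these lists was at 0 in every library. The part of these markers in the phase I differences was not tested.

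**Figure D4:**
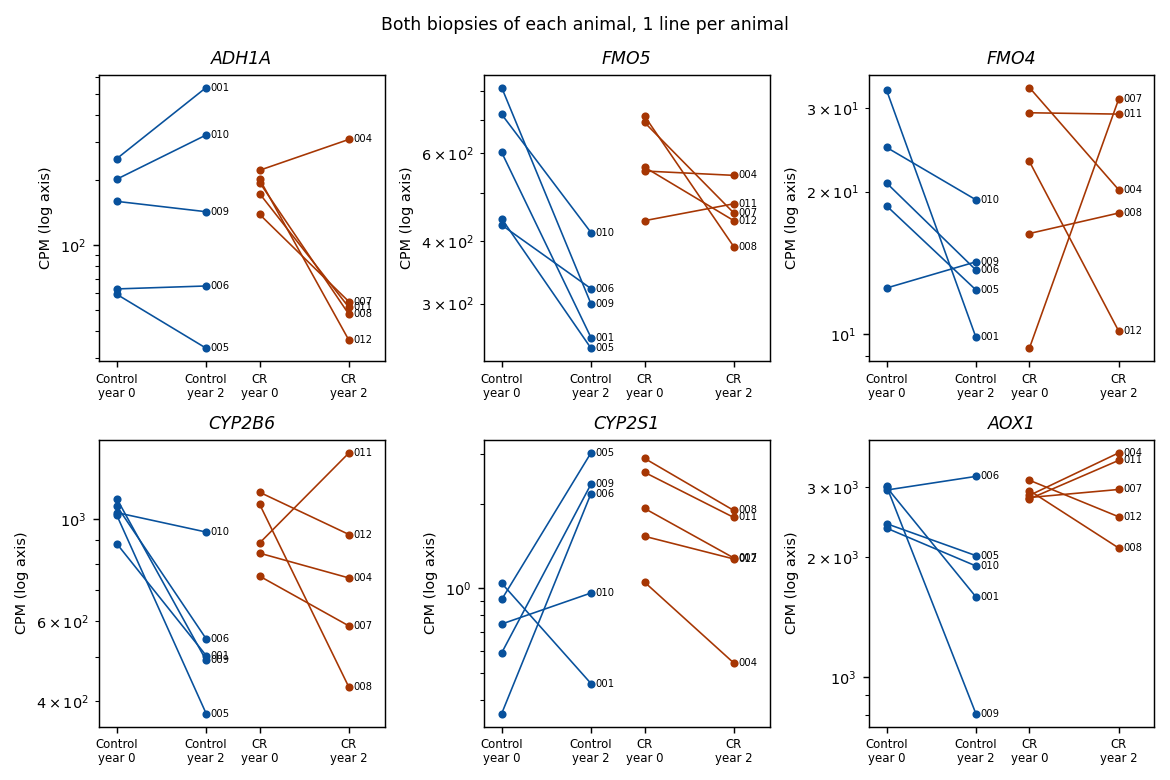
Level in CPM (log axis) of 6 phase I genes in both biopsies of each animal, 1 line per animal, with Control in blue (5 animals) and CR in brown (5 animals). All Control lines of FMO5 and CYP2B6 slope down, and the CR lines of ADH1A slope down in the 4 animals other than 004.

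The third comparison, the diet by year interaction, is the CR difference minus the Control difference. Of the 45 genes 0 were called (background 0%), and 3 had an unadjusted p under 0.05 (background 6.85%). DESeq2 and limma also called 0 of them, and DESeq2 called 37 over all genes. The median was 0.35 on the log2 scale beside 0.01 over all genes, with 33 positive and 12 negative values. The changes of the arms did not overlap in 1 gene (background 1.76%, of which 0.91% higher and 0.845% lower).

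ADH1A had the smallest p in this comparison, with an interaction of -1.63 ± 0.54 (adjusted p = 0.681, edgeR). It was -1.46 without 001 and 009 and -1.49 with resembling libraries summed (adjusted p = 0.466 and 0.953, edgeR). In Control ADH1A was 252 CPM in 001, 59.1 in 005, 62.6 in 006, 159.6 in 009 and 202 in 010 at year 0. It was 538 CPM in 001, 33.3 in 005, 64.6 in 006, 143 in 009 and 324 in 010 at year 2. Animals 001 and 010 were high and 005 and 006 low at both times, and the times overlapped. The interaction was -1.74 ± 0.63 for CYP2S1, -1.21 ± 0.85 for CYP1A2, 0.60 ± 0.31 for FMO5 and 0.94 ± 0.59 for CYP2E1 (adjusted p from 0.681 to 0.789, edgeR). Without 001 and 009 the FMO5 value was 0.32 and the CYP2E1 value 0.26, and without 009 alone CYP2E1 was at 0.44. All 14 hepatocyte markers had positive interaction values (median 0.48) and all 17 macrophage markers negative ones (median -1.01), and their part in the result was not tested.

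The arms were next compared with each other at year 0. Of 44 genes tested 0 were called, where the background was 0.242% of 13244 genes, and 5 had an unadjusted p under 0.05, where the background was 18.3%. DESeq2 called 2, beside 761 over all genes, and limma 1, beside 384 or 356 depending on the pseudocount. The median log2 difference was -0.08 (CR minus Control) beside -0.01 over all genes, with 13 positive and 31 negative values. The arms did not overlap in 1 gene, CYP2S1 (background 4.99%, of which 2.84% higher and 2.15% lower).

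CYP2S1 was 1.04 CPM in 001, 0.911 in 005, 0.358 in 006, 0.589 in 009 and 0.745 in 010 in Control at year 0. In CR it was 1.05 CPM in 004, 1.92 in 007, 2.90 in 008, 2.58 in 011 and 1.53 in 012. The lowest CR library, 004, and the highest Control library, 001, were nearly equal, and they are a resembling pair. The log2 difference was 1.45 ± 0.34, with an adjusted p of 0.0831 by edgeR, 0.00451 by DESeq2 and 0.0399 by limma on log2(TPM + 1). Without animal 001 it was 1.61 (adjusted p = 0.0493, edgeR), and with resembling libraries summed it was 1.27 (adjusted p = 0.611, edgeR). At year 2 CYP2S1 was 0.458 CPM in 001, 3.03 in 005, 2.17 in 006, 2.34 in 009 and 0.961 in 010 in Control. In CR it was 0.542 CPM in 004, 1.28 in 007, 1.89 in 008, 1.78 in 011 and 1.27 in 012, and the arms overlapped. Its level was low, with a mean of 1.08 TPM.

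CYP4F12, a fatty acid hydroxylase, was 184 CPM in 001, 177 in 005, 188 in 006, 184 in 009 and 205 in 010 in Control at year 0. In CR it was 151 CPM in 004, 118 in 007, 124 in 008, 179 in 011 and 136 in 012. The arms overlapped through CR 011. CYP4F12 had a log2 difference of -0.40 ± 0.12 (adjusted p = 0.127 by edgeR and 0.0379 by DESeq2), and -0.38 with resembling libraries summed (adjusted p = 0.662, edgeR). CYP4F11 had -0.41 ± 0.16, CYP2C8 -0.47 ± 0.21, CYP3A43 0.89 ± 0.48 and CYP1A1 1.11 ± 0.77 (log2 differences, adjusted p from 0.207 to 0.474, edgeR). Without 004 the CYP1A1 value was 0.63. At year 0 all 17 macrophage markers were higher in CR (median 0.74, summed level 1522 to 1989.6 TPM against 802 to 1430.4 TPM in Control) and 11 of 14 hepatocyte markers lower (median -0.41), of which the asialoglycoprotein receptor gene ASGR2 was called at -0.57 ± 0.09 (adjusted p = 0.0442, edgeR). That call was lost, with 0 genes called, in 1 fit of all 20 libraries and with resembling libraries summed. The part of these markers in the phase I values was not tested.

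At year 2, after 2 years on the diets, 0 of 43 genes tested were called (background 0% of 13345 genes), and 2 had an unadjusted p under 0.05 (background 7.03%). DESeq2 and limma also called 0 of them, and DESeq2 called 11 over all genes. The median log2 difference was 0.07 (CR minus Control) beside -0.07 over all genes, with 23 positive and 20 negative values. The arms did not overlap in 1 gene (background 0.757%, of which 0.375% higher and 0.382% lower).

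FMO5 in CR at year 2 was 542 CPM in 004, 456 in 007, 390.0 in 008, 476 in 011 and 439.9 in 012. On the CPM scale this overlaps Control only through 010 and CR 008. In TPM the overlap was wider: Control 009 and 010 had 363 and 308 TPM, within the 283 to 366 TPM of CR. The FMO5 log2 difference was 0.58 ± 0.23 (adjusted p = 0.659, edgeR), beside 0.49 without 001 and 009 and 0.69 with resembling libraries summed (adjusted p = 0.9996 and 0.825, edgeR). FMO4, a low member of the family, had 0.64 ± 0.30, CYP4F11 -0.64 ± 0.38 and CYP4F3, a leukotriene and fatty acid hydroxylase, -0.45 ± 0.27 (log2 differences, adjusted p from 0.659 to 0.661, edgeR). Without 001 the CYP4F11 value was -0.17, and without 001 and 009 it was -0.24 and that of CYP4F3 -0.07. The CES1 value of -1.54 ± 0.94 rested on animal 001: without it the log2 difference was 0.04, and without 004 it was -2.79. CES1 in Control at year 2 was 1239 CPM in 001, 76.2 in 005, 49.2 in 006, 115 in 009 and 215 in 010. In CR it was 393 CPM in 004, 56.0 in 007, 51.3 in 008, 49.0 in 011 and 41.0 in 012. The libraries of 001 and 004, a resembling pair, were the highest of their arms. At year 2, 15 of 17 macrophage markers were lower in CR (median -0.21) and 7 of 14 hepatocyte markers (median 0.07), and their part in these values was not tested.

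Whether the genes differed between animals of a diet by more than both biopsies of an animal did was tested with the animal term of the same fit. Of 45 genes 0 were called (background 0.0437%), and 7 had an unadjusted p under 0.05 (background 4.03%). Among the smallest p were those of ADH1A (F = 6.52, adjusted p = 0.481), FMO1 (F = 5.70, adjusted p = 0.591) and CYP3A43 (F = 5.36, adjusted p = 0.603), all by edgeR. With resembling libraries summed, F of ADH1A was 7.68 (adjusted p = 0.547, edgeR). CES1, CYP3A7, CYP4F22 and CES5A followed with F from 2.70 to 3.65. DESeq2's likelihood ratio test called 6 of the phase I genes, beside 299 over all genes. Among the 6 were ADH1A, FMO1, CYP3A43, CES1 and CYP3A7, at adjusted p from 2.23e-06 to 0.00614.

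CYP3A7 was 2082 CPM in 001, 247 in 005, 186 in 006, 401 in 009 and 419.9 in 010 in Control at year 0. In CR at year 0 it was 1639 CPM in 004, 395 in 007, 327 in 008, 517 in 011 and 444 in 012. Animals 001 and 004 stood above all others at year 0, in different diets. At year 2 CYP3A7 was 1169 CPM in 001, 102 in 005, 914 in 006, 244 in 009 and 126 in 010 in Control. In CR it was 564 CPM in 004, 567 in 007, 788 in 008, 573 in 011 and 493 in 012. The highest library was 001, followed by 006. CYP3A43 showed the reverse at year 0, with its lowest values in 001 and 004 at 33.5 and 29.9 CPM. The highest CYP3A43 value at year 0 was 195 CPM in 012. At year 2 its highest value was 311 CPM in 009, with 32.4 in 001 and 54.5 in 004.

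FMO1 was 5.99 CPM in 001, 18.8 in 005, 22.9 in 006, 2.36 in 009 and 2.91 in 010 in Control at year 0. In CR at year 0 it was 6.11 CPM in 004, 2.22 in 007, 5.67 in 008, 10.3 in 011 and 7.61 in 012. Animals 005 and 006 were highest at year 0 and 009 and 007 lowest, and the arms overlapped. At year 2 FMO1 was 4.94 CPM in 005 and 11.2 in 006, and it was highest in CR 004 at 11.5. CYP4F22 was 0.036 CPM in 001, 2.43 in 005, 2.35 in 006, 0.275 in 009 and 0.596 in 010 in Control at year 0. In CR at year 0 it was 0.032 CPM in 004, 0.259 in 007, 0.467 in 008, 0.556 in 011 and 0.578 in 012. Here too 005 and 006 were highest at year 0, and 001 and 004 were near 0. At year 2 CYP4F22 was 0.230 CPM in 005 and 0.344 in 006, and it was highest in CR 011 at 1.02.

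**Figure D5:**
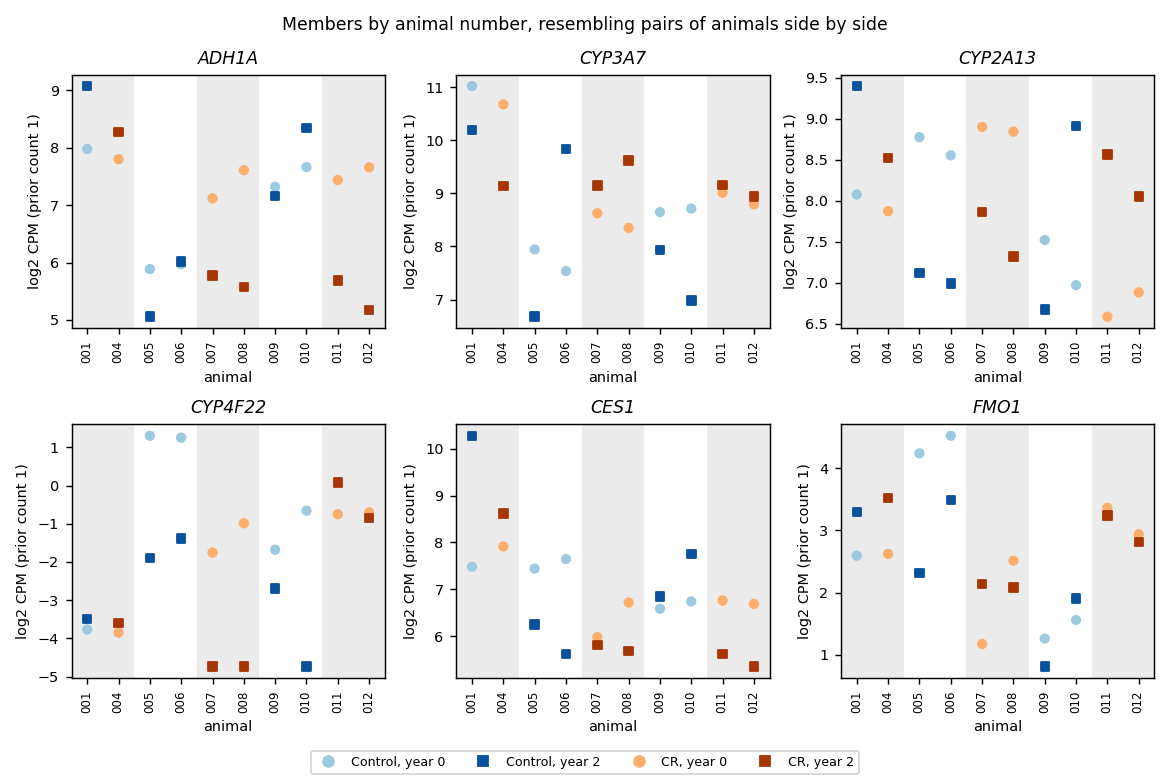
Level in log2 CPM of 6 phase I genes in the 20 libraries, by animal number, with circles for year 0, squares for year 2, and grey and white bands that set the animals of a resembling pair side by side (Control in blue, CR in brown). At year 0 the circles of a band mostly lie close together, as for ADH1A in 005 and 006 at 59.1 and 62.6 CPM, and for several bands the squares share a second, different level.

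The plot by animal number shows differences between the years that both animals of a resembling pair share. In CYP2A13 007 and 008 were lower at year 2 and 011 and 012 higher, in the same diet. This is a description of the libraries, and its source was not tested.

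Genes that act around the phase I enzymes were described by lists. Of 28 tested nuclear receptors and transcription factors that drive phase I genes, 0 were called in any comparison. Their median log2 difference was -0.23 in Control (7 positive, 21 negative), 0.02 in CR and 0.21 for the interaction. In Control the smallest p belonged to ARNT, the partner of the aryl hydrocarbon receptor, with -0.72 ± 0.20, the PAR bZIP factor HLF with -0.80 ± 0.23 and the aryl hydrocarbon receptor AHR with -1.03 ± 0.41 (adjusted p from 0.297 to 0.32, edgeR). At year 0 NR1I3, which encodes CAR, was at -0.42 ± 0.18 in CR against Control (adjusted p = 0.246, edgeR).

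Of 19 genes for electron donors and haem synthesis 0 were called, with a median log2 difference of -0.09 in Control and 0.09 in CR. Cytochrome b5 (CYB5A), which passes electrons to some P450 enzymes, had -1.04 ± 0.30 in Control (adjusted p = 0.297, edgeR). The summed level of the list was lowest in Control 001 at year 2, at 1671 TPM, beside 3675 to 3990 TPM in Control at year 0. FECH, which inserts iron in the last step of haem synthesis, had -0.83 ± 0.24 in Control and -0.86 ± 0.24 in CR (adjusted p = 0.297 and 0.999, edgeR).

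Of 28 other oxidation and reduction enzymes 0 were called. In Control 25 of the 28 had negative log2 differences (median -0.48), and the median was 0.05 in CR and 0.49 for the interaction. Against the direction of that list, the aldo-keto reductase AKR1B10 had 3.73 ± 0.64 in Control, with an adjusted p of 0.231 by edgeR. HSD11B1, which reactivates cortisol, had -0.99 ± 0.30 in Control (adjusted p = 0.297, edgeR). Genes of pericentral hepatocytes other than phase I genes had a median of -0.20 in Control (5 positive, 9 negative of 14) and 0.00 in CR, and genes of periportal hepatocytes -0.44 (2 positive, 12 negative of 14) and 0.01. None of these list genes was called in any comparison. No marker of lymphocytes, neutrophils, endothelial cells, stellate cells, bile duct cells (cholangiocytes), red blood cells, muscle, fat or the group of kidney, pancreas and gut was called either. Their median log2 differences in Control were, in that order, 0.25, 0.55, 0.31, 0.32, 0.47, -0.18, 0.43, 0.21 and -0.09. In CR they were -0.36, -0.02, -0.28, 0.16, 0.56, -0.10, 0.39, -0.25 and -0.25. The values of muscle, fat and the last group rest on 2, 3 and 4 genes. Red blood cell markers had a median of -1.10 in CR against Control at year 0 and -1.60 at year 2.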

How the data were processed

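Per the labels, total RNA from liver biopsies was made into TruSeq libraries and sequenced in paired 100-base reads. The authors deposited expected counts per gene (estimated, not normalized, 4.37% not whole) and TPM per gene and per transcript. The submitters' processing notes list STAR, RSEM, DESeq2 and the build Mmul_8.0.1 (rheMac8) with neither roles nor versions. The sources used here do not give the strand setting or the annotation.

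Counts were rounded, filtered by filterByExpr, scaled by TMM and tested with the robust quasi-likelihood F test of edgeR 4.0.16 (R 4.3.3), two-sided, over all genes, at a Benjamini-Hochberg adjusted p of 0.05. Changes and the interaction came from 1 fit of 20 libraries with a term per animal, and the arms were compared within a year. CPM are TMM scaled, and log2 CPM use a prior count of 1. The pairing comes from the labels' animal numbers, and the deviations of both biopsies from their group means correlated at -0.36 to 0.24. Alternatives used DESeq2 1.42.0, limma 3.58.1 on log2(TPM + pseudocount), other scaling and filters, left-out animals and, chosen after seeing the data, summed resembling libraries. The edgeR, limma and DESeq2 steps were run on simulated data with known changes.

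Members and the 16 gene lists were chosen with earlier results of these data known. Named are members with the 3 smallest p per direction and comparison, the 8 smallest p of the animal term, the 12 most abundant, the 5 most and 5 least variable, a fixed panel, and from lists the called genes and the 3 smallest p per comparison. Medians over list genes and counts of direction stand in for list tests. RefSeq names (T2T-MMU8v2.0) matched 39 members by symbol and 1 by synonym, and no coordinates or sequences are given. The synonym is CYP2A6, listed there under CYP2A23. No name matched CES1, CES4A, CYP2A13, CYP2A7, CYP4A22 or CYP4F3, and functions given for these follow the symbol. Results for some genes are not reported here, and counts over the set include them. The labels give separate animals, and p-values treat their libraries as independent.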

Additional observations from a re-analysis of the deposited data

Results flagged for a closer look

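In each group of 5 libraries, the log2 CPM of the 37 named members was checked for a library far from the others, by the gap to the nearest library as a share of the group's range, with a critical value of 0.71. Chance gives about 5% of sets, and sets that hold the same library are not independent. Past the critical value were 8 of 148 sets of 5 values, which is near that share. Of these, 4 were CR 004: ADH1A at year 2 (0.808; 309 CPM against 36.2 to 54.6 in the others), CES1 at year 2 (0.862; 393 CPM against 41.0 to 56.0), CYP3A7 at year 0 (0.716; 1639 CPM against 327 to 517) and CYP3A43 at year 0 (0.833; 29.9 CPM against 142 to 195). At year 0 the library most like that of 004 was Control 001, and the other 4 resembling pairs each shared a diet.

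For Control 001 the share was 0.745 for EPHX2 at year 2 (715 CPM against 376 to 443) and 0.716 for CYP4F3 at year 0 (496 CPM against 317 to 360.3). The EPHX2 value depended on the scale: 001 had 391 TPM, within the 342 to 541 TPM of the other libraries. For Control 009 it was 0.764 for EPHX1 at year 2 (199 CPM against 1215 to 2128) and 0.81 for CYP1A2 at year 0 (0.353 CPM against 0.119 to 0.149), the latter a count near the detection limit. What sets these libraries apart, if anything, was not tested.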

How the results depend on the processing

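The members of smallest p in each comparison kept direction and side of the threshold in 712 of 729 values recomputed under the alternatives, 15 passed the threshold and 2 reversed. DESeq2 called 1 member in the CR change, 3 in the Control change, 2 between the arms at year 0 and 6 in the animal term, where edgeR called 0. Limma called 1 at year 0 with either pseudocount. Leaving out 1 animal gave 0 to 1 members at year 0 (1 without Control 001) and 0 in the other comparisons. The CES1 value at year 2 ran from -2.79 to 0.044 when 1 animal was left out, positive without 001 (0.044), and was 0.059 without 001 and 009. Over all genes at year 0, edgeR called 32, DESeq2 761 and limma 384 or 356, no filter gave 13, leaving out 1 animal 3 to 340, leaving out 001 and 009 228, and 1 fit of all 20 libraries or summed resembling libraries 0. DESeq2 also called 203 genes in the Control change, 18 in the CR change, 37 for the interaction and 11 at year 2, where edgeR called 0, and 299 in the animal term, where edgeR called 6 and summed resembling libraries 11. The cause was not tested. With no replicate block, 0 members were called in the CR change, the Control change and the interaction, so the pairing changed no call. Scaling by relative log expression moved medians of all genes by at most 0.016.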
